A study of Mus musculus with 2 samples.

Results

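The transcription factors of the primitive streak and mesendoderm were examined in mouse epiblast stem cells (EpiSC), a primed pluripotent cell type kept in culture as a counterpart of the post-implantation epiblast. The set holds 10 genes: T (Brachyury), Eomes, Tbx6, Mixl1, Gsc, Evx1, Lhx1, Foxa2, Mesp1 and Sp5. They were chosen by gene name in the scanner files, and all of their probes were kept, which gave 14 probes of 39429 on the array and 10 of 22754 measured genes with a RefSeq name. The samples were EpiSC clone 1 and EpiSC clone 2, both wildtype female cells of C57BL/6 background at passage 9, collected with trypsin. Each clone was read on 1 Cy3 array, so each clone is 1 line and 1 sample, and no test between them is possible. The submitters set out to compare their own lines with published EpiSC. No sample of another cell type or of differentiated cells was analysed here.

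In the embryo the primitive streak forms when NODAL, WNT, BMP and FGF signals meet in the posterior epiblast, and the cells that pass through it become mesoderm and definitive endoderm. The streak factors are switched on in turn as cells ingress: T and Mixl1 along the streak, Evx1 mainly in its posterior part, Gsc, Lhx1 and Foxa2 in its anterior part, and Mesp1 and Tbx6 in cells that take up cardiac and paraxial mesoderm fate. EpiSC are known to be poised for this step and, in many lines, to carry some of these transcripts before they differentiate.

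The probes whose readings the results turn on are shown first, as stretches of 30 bases out of the 60 of each probe, 5′ to 3′ along the transcript. Capitals mark a poly(A) signal hexamer (AATAAA or ATTAAA), searched anywhere in the 60 bases and on the strand of the probe only. A hexamer alone does not show that a probe lies at the end of a transcript. The upstream Eomes probe holds 1 although it lies 764 bases upstream of the other Eomes probe. Such a hexamer was found in 9 of the 14 probes (64.3%) and in 16.7% of all probes of the array. Positions are on mm9.
T, probe on chr17:8635302-8635361, plus strand: tgttttctgcacAATAAAggcaatatatag
Eomes, upstream probe on chr9:118394425-118394484, plus strand: gtgcccggtgctATTAAAtgaatttcaaag
Eomes, downstream probe on chr9:118395189-118395248, plus strand: taagtcatttttAATAAAtgtggttcaata
Tbx6, upstream probe on chr7:133928828-133928887, plus strand: ttgatttcactccaccccctctggcttcaa
Tbx6, downstream probe on chr7:133929000-133929059, plus strand: agtatttttgttAATAAAactccaaagaca
Lhx1, upstream probe on chr11:84335442-84335594, minus strand: agtgtcgccaaagagaacagcctccactcg
Lhx1, downstream probe on chr11:84331888-84331947, minus strand: tatgtaaaaaggtgttgtttacacgaggca
Sp5, probe on chr2:70315688-70315747, plus strand: gcgaacagcagttggcagcgtgaaAATAAA
In the Tbx6 upstream probe and both Lhx1 probes neither hexamer was present. The upstream probe of Lhx1 spans 153 bases of the genome for its 60 bases, so it was matched in more than 1 block. Of the remaining probes, those of Evx1, Gsc and Mesp1 and the downstream probe of Foxa2 held a hexamer, and those of Mixl1 and the upstream probe of Foxa2 did not. The probes of a gene lie 764 bases apart along the transcript for Eomes, 172 for Tbx6 and 55 for Foxa2, so the Foxa2 probes overlap. The Lhx1 probes were designed on different transcript records, for which no distance is given. Exon and UTR annotation of mm9 was not used here.

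Of the 10 factors, 4 were detected in both clones: the T-box genes Eomes and Tbx6, the LIM homeobox gene Lhx1 and the zinc finger gene Sp5. The same 4 were found on each array, and the other 6, T, Mixl1, Gsc, Evx1, Foxa2 and Mesp1, did not pass the flag in either (33.8% of all genes were in neither). A gene counted as detected where at least 1 of its probes carried the software's flag for a spot well above background. The share of 40% stands beside 61.3% of all 22754 genes detected on both arrays (63.6% in clone 1 and 63.9% in clone 2). By probe, 6 of 14 were detected in clone 1, 5 in clone 2 and 5 in both, against 57.4%, 57.5% and 54.7% of all probes. The software also gives a less strict flag, for a spot whose signal is positive and significantly above its background. With it T and Gsc were added, which gave 6 of 10 in each clone and in both (60%), against 82.7%, 83.7% and 79.9% of all genes. By probe this flag gave 8 of 14 in both clones, against 75.7% of all probes. In such bulk samples fewer cells of a type and less RNA per cell cannot be told apart.

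**Figure D1:**
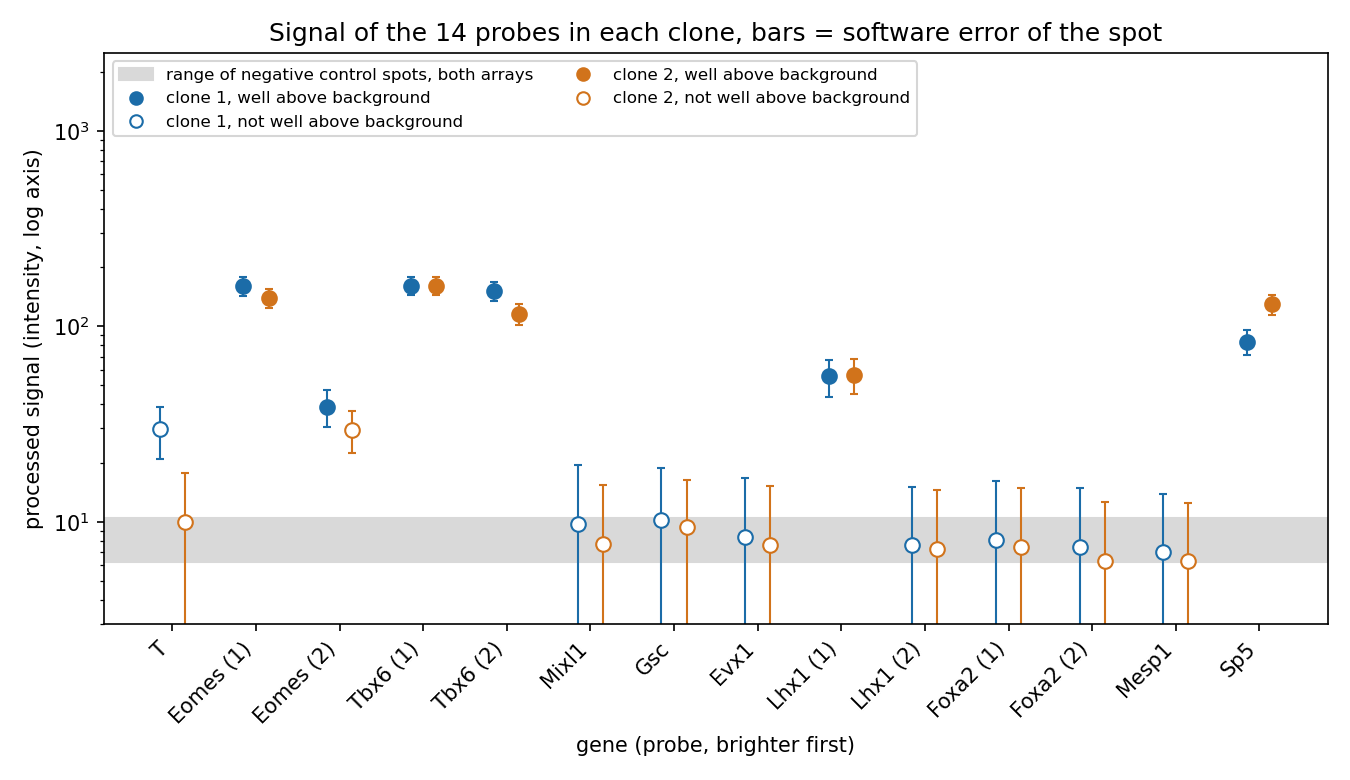
Processed signal (intensity, log axis) of the 14 probes in clone 1 (blue) and clone 2 (orange), with the error the scanner software gives each spot as bars (those of dim spots run below the axis); filled points are well above background, and the grey band is the range of negative control spots of both arrays, 6.19 to 10.5. The probes of Tbx6 and Sp5, 1 probe each of Eomes and Lhx1, and the other Eomes probe in clone 1 are filled, T in clone 1 and the second Eomes probe in clone 2 are open but lie above the band, and T in clone 2 and the remaining probes lie inside it.

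The signals are best read against the negative controls, spots that match no mouse transcript. Their processed signals ran from 6.98 to 10.5 in clone 1 (141 spots) and from 6.19 to 10.1 in clone 2 (147 spots). Each probe of the 10 factors was printed once per array, so its error is the one that the software's error model gives the spot, and it does not cover the spread between cultures. Where a spot does not differ from its background, the software writes a surrogate value in place of a signal. This was so for 5 of the 14 member probes in clone 1 and 6 in clone 2, and for 20.3% and 19.5% of all spots. Levels of different genes are not compared, since each probe binds with its own strength.

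T, the T-box factor that marks the streak and is needed for posterior mesoderm, missed the well-above-background flag in both clones. Its spot had a processed signal of 29.8 ± 8.74 in clone 1 and 9.99 ± 7.79 in clone 2 (± software error). The mean pixel brightness was 131 and 102, over local backgrounds of 45 and 44. In clone 1 no negative control was as bright as the T spot, and in clone 2 1 of 147 was. Both spots carried the less strict flag, and no fold is given because neither was well above background. The authors' deposited table lists T at 26.9 for clone 1 and 12.3 for clone 2. Scaled as log2 to the 75th percentile signal of each array, T stood at -4.78 and -6.18, while the lowest level of a detected probe was -4.54 and -4.55. The lower value in clone 2 was found in 6 of 7 alternative settings, but several of these only rescaled the same signals. These were quantile normalization, scaling over detected probes, no scaling, and leaving out spots with an adjacent spot 2-fold apart. With median pixel signals T stood closer, at -3.31 in clone 1 and -3.71 in clone 2. With normexp background correction the order turned, with -2.93 in clone 1 and -2.43 in clone 2.

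Eomes, a T-box factor required for definitive endoderm and cardiac mesoderm, was detected in both clones. Its upstream probe read 160.4 ± 17.5 in clone 1 and 140.0 ± 15.4 in clone 2, which is 20.1 and 19.7 times the median negative control. After scaling the levels were -2.35 and -2.38, a difference of -0.02 log2 (clone 2 minus clone 1), and the clones overlapped within the software error. The downstream probe, 764 bases nearer the end of the transcript, read 38.8 ± 8.31 in clone 1 and 29.6 ± 7.25 in clone 2. It was well above background in clone 1 but not in clone 2, and it carried the less strict flag in both. The bound was 1.11-fold higher in clone 1 as scaled here, but the software errors of the spots overlap. Eomes was thus read well above background by both probes in clone 1 and by 1 of them in clone 2.

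Tbx6, the T-box factor of paraxial mesoderm, was the factor read well above background by both of its probes on both arrays. The downstream probe gave 162 ± 17.6 in clone 1 and 162 ± 17.5 in clone 2. The upstream probe gave 152 ± 17.6 and 116 ± 14.0. After scaling, the downstream probe differed by 0.17 log2 and the upstream probe by -0.22, so the probes pointed in opposite directions and Tbx6 gave no direction between clones.

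Among the homeobox factors, Mixl1, a paired-like factor of the streak, gave a surrogate value on both arrays. Its spot had a mean pixel brightness of 102 in clone 1 and 88.6 in clone 2, a level reached by 1 of 141 and 91 of 147 negative controls. Gsc, the goosecoid factor of the anterior streak and organizer, had a processed signal of 10.2 ± 8.52 and 9.35 ± 7.07. It carried the less strict flag in both clones, and no negative control was as bright as its spots of 111 and 109 in mean pixel brightness. Evx1, an even-skipped homeobox factor of the posterior streak, gave a surrogate on both arrays, and 17 of 141 and 47 of 147 negative controls were at least as bright.

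Lhx1, a LIM homeobox factor of the anterior streak, head organizer and visceral endoderm, was detected by its upstream probe, with 55.4 ± 12.0 in clone 1 and 56.5 ± 11.4 in clone 2. The scaled levels were -3.89 and -3.68, a difference of 0.20 log2 that lies within the software error of the spots. The downstream probe, designed on another transcript record, read 7.56 ± 7.53 and 7.26 ± 7.25, within the range of the negative controls' processed signals. In clone 1 it carried the less strict flag, and no negative control was as bright in mean pixel brightness (108). In clone 2 it gave a surrogate, and 3 of 147 were. The detection of Lhx1 therefore rests on 1 probe of 2.

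Foxa2, the forkhead factor of the anterior streak, endoderm and notochord, gave surrogate values at both probes on both arrays. Mean pixel brightness was 97.6 and 98.1 in clone 1 and 99.9 and 95.7 in clone 2, and between 7 and 26 negative controls of an array were at least as bright. Mesp1, the bHLH factor of the earliest cardiac mesoderm, gave a surrogate as well, with brightness values of 96.1 and 89.1 that 21 of 141 and 82 of 147 negative controls reached. For Mixl1, Evx1, Foxa2 and Mesp1 the arrays therefore set a detection limit and no level, and a transcript below that limit was not detectable here.

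Sp5, a zinc finger factor of the Sp family that is a direct target of WNT signalling in the streak, differed most between clones among the 4 detected factors. Its signal was 83.6 ± 12.0 in clone 1 and 129.7 ± 15.3 in clone 2, and the error ranges do not overlap. The scaled levels were -3.29 and -2.49, which makes Sp5 1.75-fold higher in clone 2 (0.81 log2). Of the 13928 genes measured on both arrays, 2.72% were higher in clone 2 by at least as much. Spots of 1 probe repeated within an array, at the brightness Sp5 had on each array, give an SD of 0.17 log2 for the difference of 2 single spots, and the Sp5 difference was 4.85 times that. This SD combines the median spread of repeated spots within each array, 0.12 log2 in clone 1 and 0.11 in clone 2. The 90th percentile of that spread was 0.22 and 0.18. The error is technical and leaves out the spread between arrays and between cultures. The difference was positive in all 9 alternative settings, between 0.38 log2 with median pixel signals and 0.85 log2 in the authors' deposited table. Not all of these could change it. Sp5 has 1 probe, so the mean over probes and the less strict flag return the reported value. No adjacent spot was 2-fold apart, so leaving such spots out touched only the scaling.

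**Figure D2:**
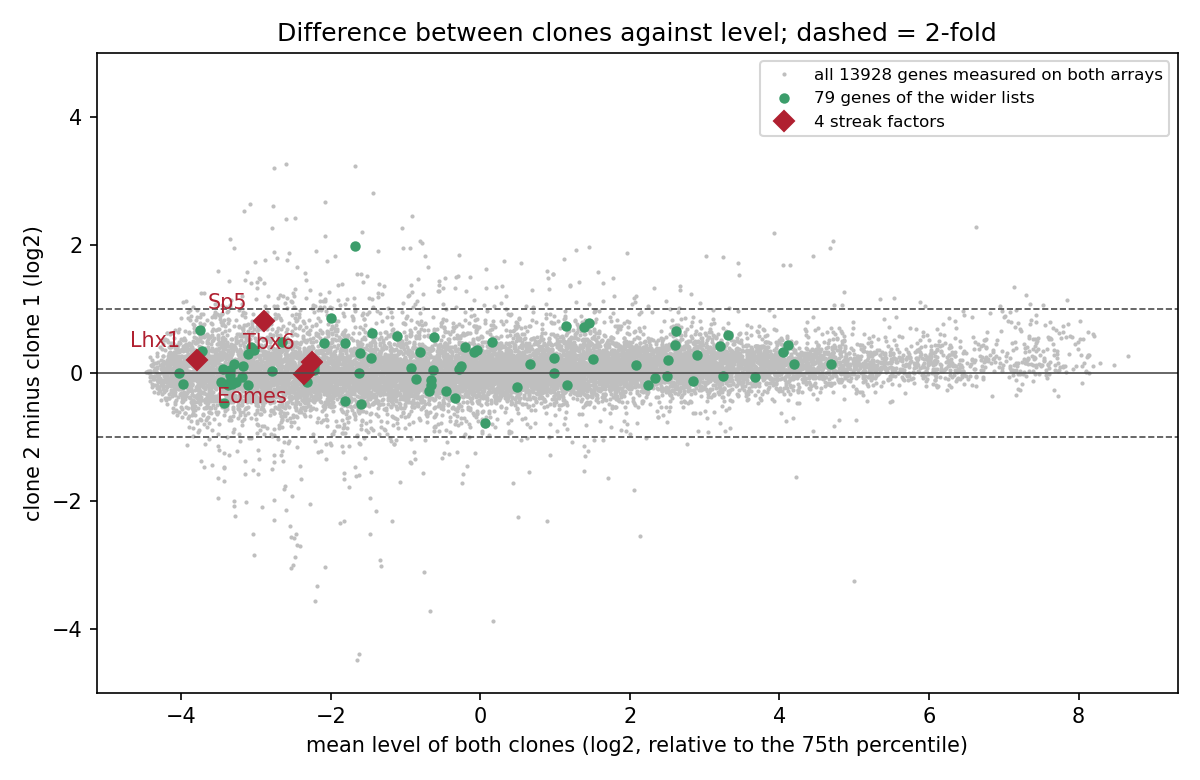
Difference between clones (clone 2 minus clone 1, log2) against the mean level of both clones (log2 relative to the 75th percentile) for 13928 genes measured on both arrays (grey), 79 genes of the wider lists (green) and the 4 detected streak factors (red); dashed lines mark 2-fold. Eomes, Tbx6 and Lhx1 lie between -0.02 and 0.20, and Sp5 lies at 0.81, below the 2-fold line.

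None of the 4 detected factors was 2-fold apart, beside 2.55% of all measured genes (1.51% higher in clone 2 and 1.03% higher in clone 1). Their median difference was 0.19 log2, against 0.05 over all genes measured on both arrays, and 90.9% of those genes lay within 1.5-fold. Eomes and Tbx6 changed sign with the setting: Eomes lay between -0.20 and 0.25 log2 and Tbx6 between -0.02 and 0.34 over 9 alternatives. Lhx1 stayed positive, from 0.03 to 0.64. For Eomes, Tbx6 and Lhx1 too, the less strict flag could only return the reported value.

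**Figure D3:**
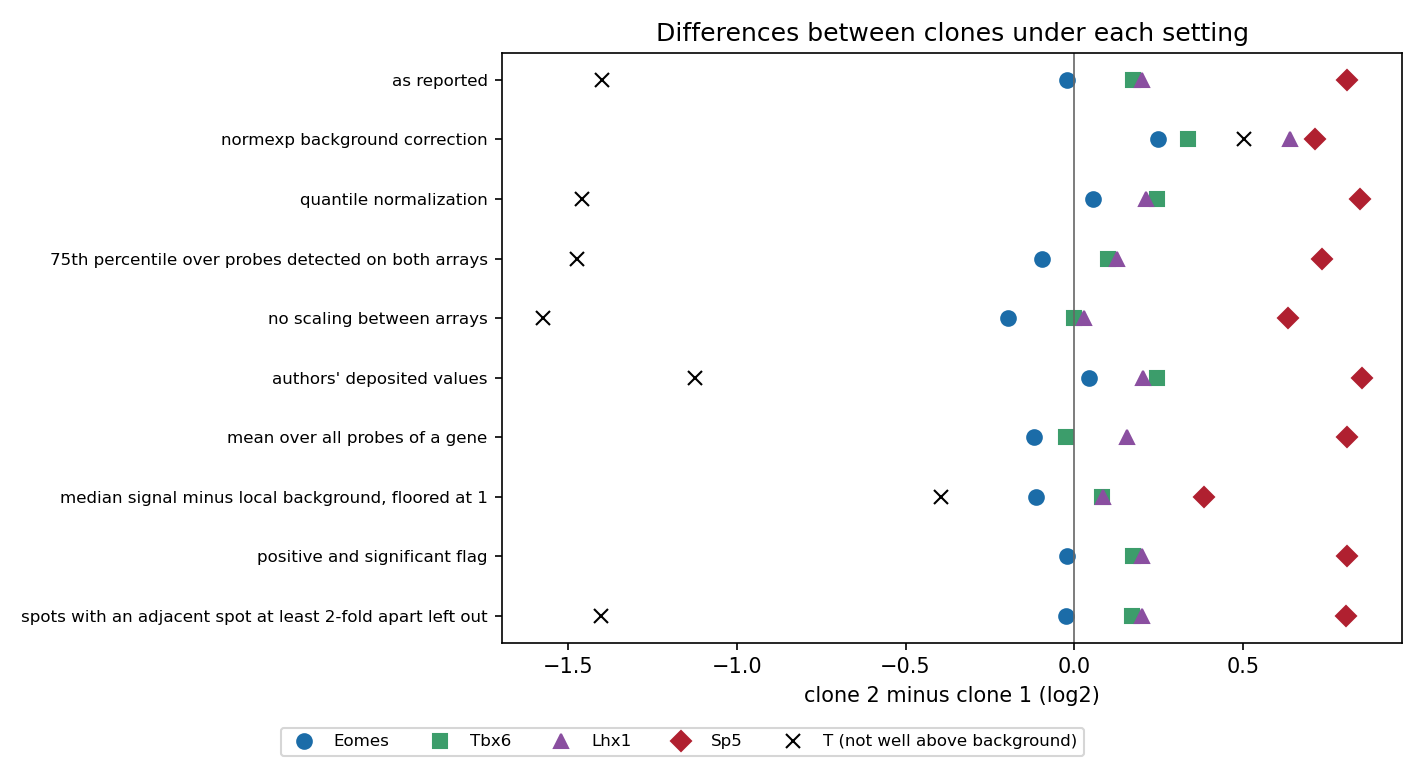
Difference between clones (clone 2 minus clone 1, log2) of Eomes, Tbx6, Lhx1, Sp5 and T under each setting, 1 row per setting and 1 symbol per gene. Sp5 is positive in every row, Eomes and Tbx6 lie on both sides of 0, and T, which is not well above background and is shown in 8 of the 10 rows, is below 0 except with normexp background correction.

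The signals that induce the streak were read from lists of pathway genes. Of 18 inducing ligands and their convertases, 14 were detected in both clones (77.8% beside 61.3% of all genes), and all 18 receptors and transducers were. Nodal, the ligand at the start of the cascade, had 2.75 in clone 1 and 3.04 in clone 2. Wnt3, the WNT ligand first needed for the streak, had -1.40 and -0.83. Foxh1, the DNA-binding partner of SMAD2 at NODAL targets, had 0.99 on both arrays, and its difference of -0.01 log2 was small. Wnt3a and Fgf3 missed both flags in both clones, and Wnt2b missed the stricter one. The receptor list showed no order between clones, with 11 genes higher in clone 2 and 7 higher in clone 1, and a median of 0.08 log2.

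Of the 14 measured ligand genes, 11 were higher in clone 2, as were 56.9% of all genes measured on both arrays. Their median difference was 0.35 log2, and that of all genes was 0.05. Over 8 alternatives the median lay between 0.18 and 0.42, and 10 to 12 of them were higher. None reached 2-fold. Among them were the convertases Pcsk6 (1.81-fold) and Furin (1.64-fold), which process the NODAL precursor, Wnt3 (1.49-fold) and Fgf4 (1.51-fold). The NODAL co-receptor Tdgf1 was 1.58-fold higher by its brightest probe, and another of its probes differed by -0.40 log2. The spot of Pcsk6 had an adjacent spot 2-fold apart. Bmp4 ran the other way, 1.35-fold higher in clone 1. Of 2 Bmp4 probes, 1 was detected on both arrays. Over 8 alternatives the brightest Bmp4 probe lay between -0.61 log2 and, with normexp correction, -0.08 log2. Averaging the Bmp4 probes gave -0.18 log2. Wnt8a, a WNT ligand of the posterior epiblast, was detected in clone 2 alone, at -4.88 in clone 1 and -2.94 in clone 2, and was at least 3.04-fold higher there as scaled here. The bound does not hold under every setting: the fold between its spots was 2.14 with normexp correction and 1.78 with median pixel signals.

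**Figure D4:**
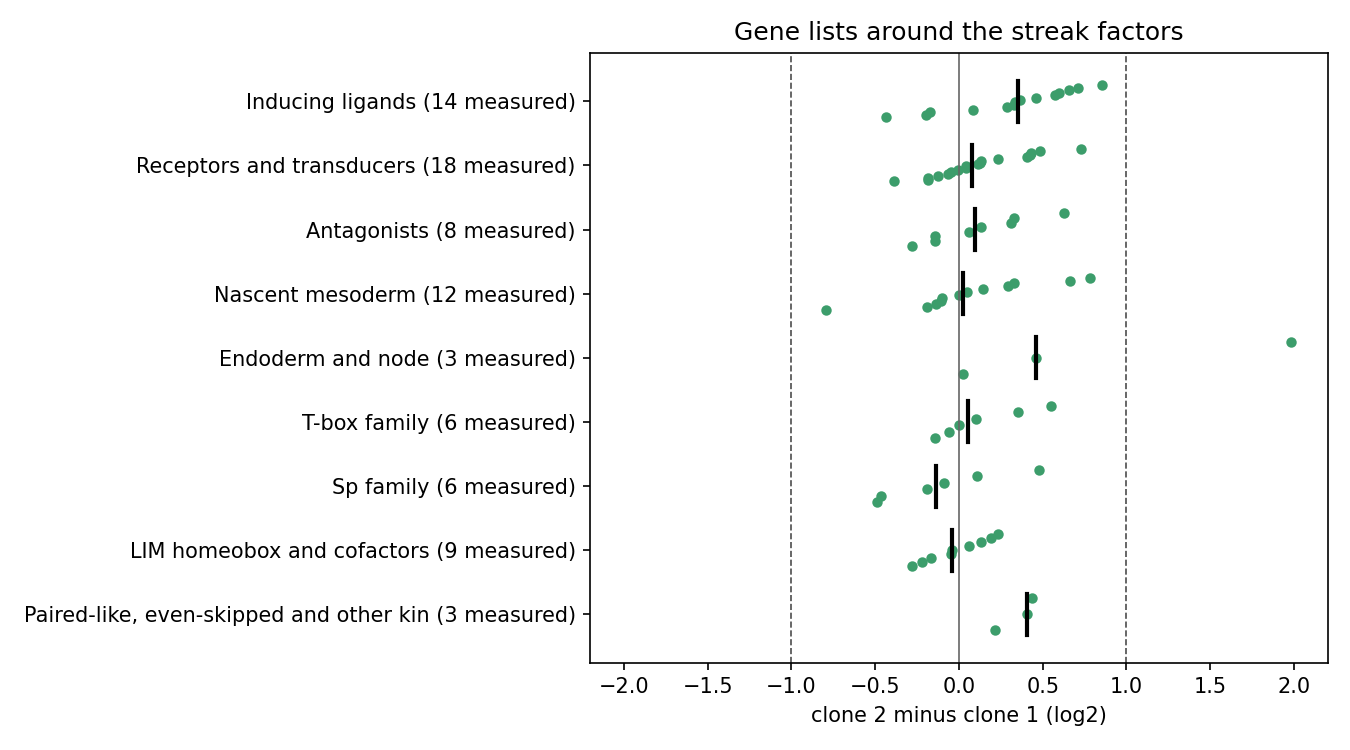
Difference between clones (clone 2 minus clone 1, log2) of each gene measured on both arrays in the 9 lists around the streak factors, with the median of each list as a black bar and 2-fold as dashed lines. The ligands have a median of 0.35 log2. Foxj1 in the list of endoderm and node genes is the 1 plotted gene beyond 2-fold, beside 2.55% of all measured genes.

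Antagonists that restrict the streak were detected in both clones in 8 of 12 cases (66.7%, beside 61.3% of all genes). The NODAL antagonist Lefty2, itself a NODAL target, had -0.32 and -0.25, the BMP antagonists Chrd and Nog and the activin antagonist Fst were measured too, and the NODAL antagonist Cer1 and the WNT antagonists Dkk1 and Sfrp5 were not well above background. Axin2, the common feedback gene of WNT signalling, missed the stricter flag in both clones as well, at -4.57 and -4.68. It carried the less strict flag in both. The spot of the brighter of its 2 probes had an adjacent spot 2-fold apart. With such spots left out that probe was lost, and the other probe stood at -6.04 and -5.61. These are readings of another probe, so they do not correct the first ones. The median difference of the 8 measured antagonists was 0.10 log2.

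Genes downstream of the streak factors were detected in part. For nascent mesoderm, 12 of 19 were detected in both clones (63.2%), near the 61.3% of all genes. Msgn1, a bHLH factor of presomitic mesoderm, had -4.03 in both, and the Notch ligand Dll1 of the same tissue had -3.36 and -3.22. The Notch ligand Dll3 was 1.73-fold higher in clone 1, by -0.79 and -0.95 log2 at its probes. Kdr, the VEGF receptor of haemangioblast mesoderm, was 1.72-fold higher in clone 2. Of 2 Kdr probes, 1 was detected on both arrays. Over 8 alternatives the brightest Kdr probe lay between 0.61 and 0.93 log2, while averaging the Kdr probes gave 0.47 log2. Mesp2, the neighbour and paralogue of Mesp1, and Cdx1, Cdx2, Cdx4 and Hand1 were not well above background. Ripply2, a repressor that limits TBX6 protein at somite boundaries, was detected in clone 2 alone, at -4.63 and -3.46, at least 2.12-fold higher as scaled here, but 1.81-fold with normexp correction and 1.36-fold with median pixel signals. Nkx1-2 was detected in clone 1 alone, with a bound of 1.12-fold, and its direction turned with normexp correction.

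For endoderm and node, 3 of 11 genes were detected in both clones (27.3%, beside 61.3% of all genes): Hhex, Dand5 and Foxj1. Foxj1, the master factor of motile cilia in the node, was 3.95-fold higher in clone 2 (-2.66 in clone 1 and -0.68 in clone 2). It was the 1 gene past 2-fold among the 79 list genes measured on both arrays, beside 2.55% of all measured genes. Over 8 alternatives the fold lay between 2.83 with normexp correction and 4.07, and no adjacent spot was 2-fold apart. The other node genes Noto and Shh, as well as Sox17, Foxa1, Foxa3, Cxcr4 and Gata4, missed the stricter flag in both clones, and Gata6 was detected in clone 2 alone, at least 1.32-fold higher there as scaled here and 1.19-fold with median pixel signals.

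**Figure D5:**
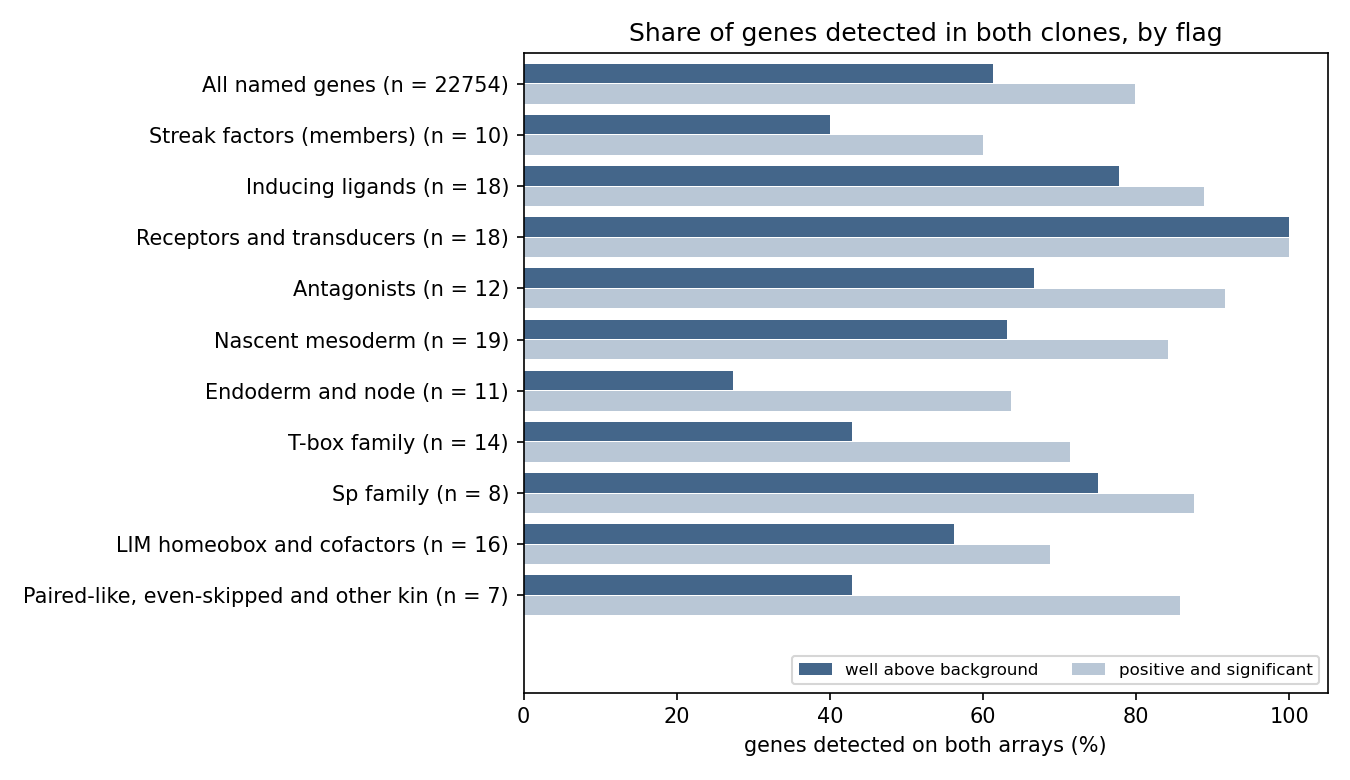
Share of genes detected on both arrays (%) by the stricter flag (dark) and the less strict flag (light) for all 22754 genes, the 10 streak factors and the 9 lists. The streak factors stand at 40% and 60%, all genes at 61.3% and 79.9%, and receptors and transducers at 100%.

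Relatives of the factors were set beside them, and their shares stand beside the 61.3% of all genes detected in both clones. Of 14 other T-box genes, 6 were detected in both clones (42.9%), namely Tbx1, Tbx3, Tbx4, Tbx10, Tbx15 and Mga. Tbx5 and Tbx22 were detected in clone 1 alone, with bounds of 1.12-fold and 1.18-fold, and both turned direction with normexp background correction. Of 8 other Sp genes, 6 were detected in both (75%). Sp6 was 1.39-fold higher in clone 2 and Sp8, a close relative of Sp5, 1.38-fold higher in clone 1, though the direction of Sp8 turned with normexp correction (0.24 log2) and as a mean over its probes (0.34 log2). The median difference of the Sp list was -0.14 log2. Of 16 LIM homeobox genes and cofactors, 9 were detected in both (56.2%), including the LHX1 cofactors Ldb1 (0.60 and 0.38) and Ssbp3 (2.41 and 2.61). Of 7 kin of Gsc and Evx1, 3 were detected in both (42.9%), Otx2 among them. Evx2 and Pitx3 were detected in clone 1 alone, with bounds of 1.26-fold and 1.08-fold, and both turned direction with normexp correction. Such turns were not particular to these genes. With normexp correction Axin2 turned as well (0.58 log2), and all 6 measured T-box genes were higher in clone 2. The cause was not tested.

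Over the 9 lists together, 79 of 123 genes were detected in both clones (64.2%, beside 61.3% of all genes), and 5 and 3 were detected in clone 1 and clone 2 alone, beside 2.32% and 2.58% of all genes.

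The cell type was checked with markers, whose counts stand beside the 61.3% of all genes detected on both arrays. All 9 EpiSC markers were detected in both clones, among them Pou5f1, Nanog and Fgf5, and 0 of 5 naive markers were by the stricter flag. All 8 fibroblast markers were detected as well, with a summed level of 83.5 in clone 1 and 91.8 in clone 2 (in units of the 75th percentile signal). Cell types in which these factors are also active were read beside them. Trophoblast and natural killer or T cells use Eomes. Of 6 trophoblast markers 1 was detected, Gcm1, by 2 of its 3 probes on both arrays. The brightest Gcm1 probe, which gives its level, was placed on chromosome 7 although the gene lies on chromosome 9. Of 5 T and NK cell markers 2 were detected, Cd3e and Prf1. The summed levels of the markers were 8.28 and 6.07 for trophoblast and 0.40 and 1.42 for T and NK cells. The trophoblast sum is nearly all that Gcm1 reading (3.04 and 2.58 log2), and the T and NK cell sum moved with Cd3e, 5.46-fold higher in clone 2, while Prf1 was 1.35-fold higher in clone 1. The markers Cdx2, Elf5 and Ncr1 were at the level of the negative controls. Extraembryonic endoderm uses Lhx1, Eomes and Foxa2: of its 6 markers 1, Amn, was detected in both clones, with summed levels of 0.17 and 0.24, and Afp and Ttr were at the level of the negative controls. Of 6 neural markers 4 were detected in both clones (66.7%), with summed levels of 10.3 and 9.44. These were Sox1, Olig2, Tubb3 and Nefl, while Pax6 and Neurog2 were not well above background. Of 4 blood markers 2, Csf1r and Lyz2, were detected in both clones (50%), with summed levels of 2.25 and 2.64. Ptprc was detected in clone 1 alone and Cd68 in clone 2 alone, with bounds of 1.54-fold and 1.35-fold, so each clone had 3 of 4. Neither the neural nor the blood share detected in both clones is far from that of all genes. With so few markers, these counts do not tell whether either cell type was present. The part of any of these cells in the readings of the streak factors was not tested.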

How the data were processed

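RNA was extracted with Trizol, purified on a column and labelled with Cy3, per the labels' protocols. The 1-colour Agilent arrays (design 026655, mm9) share a slide and a scan. Per the file headers, Feature Extraction 11.0.1.1 was run with the GE1_1100_Jul11 protocol. The deposited processed signal is an intensity corrected by the software for background and spatial trends and not normalized between arrays. The authors' deposited table is a normalized intensity by a method not given in the sources used here, with medians of 65.8 for both clones, and was used as an alternative.

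Outlier spots were left out (277 in clone 1 and 246 in clone 2), log2 signals were averaged per probe, and the 75th percentile of each array was subtracted (819 and 726, each 103 and 102 times the median negative control). A probe was detected where at least 50% of its spots were flagged. Probes were named through RefSeq accessions (26158), symbols (3128) or older symbols (910) of assembly GRCm38.p6, and 9233 had none. A gene takes the level of its brightest probe and the difference of its brightest probe detected on both arrays. A bound divides the bright level by the dim one, or by the lowest detected level of the dim array if that is higher. All member probes lie on the chromosome of their gene. With 1 array per clone no test was run. The procedure was tested on data simulated from the clone 1 array, for the recovery of differences between arrays. Both simulated arrays carried the same detection flags, so calls of detection were not tested. Alternatives used limma 3.58.1 (normexp, offset 50, and quantile), other flags, percentiles and probe rules. The text names all members, list genes 2-fold apart or detected on 1 array, direct partners and examples; Dll3, Kdr, Tdgf1, Pcsk6, Furin, Fgf4, Bmp4, Sp6, Sp8, Axin2 and other examples outside that rule were chosen after their values were seen. Members and lists were chosen with earlier results of these data known.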

Additional observations from a re-analysis of the deposited data

How the results depend on the processing

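Of the 10 factors, 4 were detected in both clones as reported, 6 by the positive and significant flag, and 6 above the 95th percentile of negative controls (7 in clone 1). The gene added in clone 1 was Mixl1, by a surrogate value of 9.76 against a cutoff of 9.71, which is no measured level. Where every probe of a gene had to be detected the count was 2 in both clones (3 in clone 1 and 2 in clone 2), without Eomes and Lhx1. Keeping outlier spots, or leaving out spots with an adjacent spot 2-fold apart, gave 4 again. Member probes detected in both clones numbered 5 as reported and 8 by either of the less strict rules. Genes of the wider lists numbered 79 of 123, and between 69 and 102 under the alternatives. The share of all genes ranged from 54.9% to 79.9%. Without scaling between arrays the median difference of all genes moved from 0.05 to -0.13 log2, and genes 2-fold higher in clone 2 and clone 1 numbered 133 and 225, in place of 211 and 144. Sp5 then read 0.63. Eomes read 0.25 and Lhx1 0.64 with normexp correction, and the cause was not tested. No paired analysis was possible because each clone has 1 array. Signals near the negative controls limit what can be said of T, Gsc, Mixl1, Evx1, Foxa2 and Mesp1.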
